A study of Homo sapiens with 6 samples.

Results

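The genes described here are the human zinc finger genes named ZNF and a number that code for protein and lie on any chromosome except 19, in DU145 cells with and without overexpression of the transcription factor TFEB. The rule names only gene type, chromosome and gene name, but it was set with earlier results of these data known. Of the 10542 genes in the deposited table, 162 met the rule. DU145 is an established human prostate cancer line. The study compared 3 DU145-TFEB libraries, from cells carrying a lentivirus that overexpresses TFEB, with 3 DU145-vector libraries, from cells carrying the vector lentivirus without it. Both lines were made stable by puromycin selection, both were grown alike, and RNA with poly(A) tails was sequenced. Nothing in the labels says that the 3 libraries of a group came from separate cultures, so that p-values measure the spread between these libraries, which may be technical, and whether more than 1 stable line was made per condition is not given in the sources used here.

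ZNF genes mostly encode proteins with tandem C2H2 fingers, in which a pair of cysteines and a pair of histidines hold a zinc ion and the finger reads a few bases of DNA. Neighbouring fingers are joined by a short conserved linker. Many family members also carry a KRAB domain, which recruits the corepressor TRIM28 and, through it, histone methylation and heterochromatin proteins, and many KRAB zinc finger proteins silence transposable elements. Other members act as promoter-binding activators, as parts of chromatin complexes, or on RNA and ribosomes rather than on DNA. The largest group of these genes lies on chromosome 19, and the genes outside it stand singly or in smaller clusters.

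TFEB itself had normalized counts, in replicates 1 to 3 of each group, of 6325, 6301 and 6036 (DU145-TFEB) against 127, 124 and 125 (DU145-vector), with a log2 fold change of 5.62 (SE 0.075, limma adjusted p = 3.18e-10), the direction that the labels give. Of the epithelial markers, KRT8 and KRT18 were listed in all 6 libraries with counts from 14615 to 28109 for KRT8, and VIM was listed from 5098 to 9470. EPCAM, CDH1, KLK3, TMPRSS2, PTPRC and PECAM1 were not analysed here. The reads on listed genes ranged from 13999961 to 16511477 per library. The table lists genes that had already passed an adjusted p of 0.05 in these same libraries, so every p-value here describes a selected set and is no independent evidence. GENCODE 29 holds 265 such zinc finger genes, and those outside the 162 were not analysed here.

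The direction of change in these genes followed the base composition of their transcripts, and the coding sequence of a single finger shows the contrast. Printed here are 78 bases of 1 finger from 4 of the lowest and 4 of the highest members, from GENCODE 29 on GRCh38, 5′ to 3′ on the coding strand, shown because the fingers code for the same kind of domain with different bases. The last 15 bases, in capitals, code for the linker. Only members with a mean normalized count of at least 50 and the stretch within 1 exon were considered for printing. The first 4 are the lowest members holding this finger and linker pattern, at chr3:31989857-31989934 (+), chr3:44721286-44721363 (+), chr5:179079084-179079161 (+) and chr12:133202854-133202931 (+), each within a coding exon:
ZNF860: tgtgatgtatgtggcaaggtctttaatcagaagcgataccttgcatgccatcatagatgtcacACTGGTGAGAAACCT
ZNF502: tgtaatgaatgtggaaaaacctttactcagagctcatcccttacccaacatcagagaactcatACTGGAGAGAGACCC
ZNF354C: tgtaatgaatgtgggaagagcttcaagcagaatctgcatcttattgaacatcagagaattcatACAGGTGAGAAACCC
ZNF268: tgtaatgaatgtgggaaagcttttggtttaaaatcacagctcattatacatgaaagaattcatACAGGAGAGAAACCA
The other 4 are the highest members holding it, at chr7:150396806-150396883 (+), chr22:23744640-23744717 (-), chr2:27378651-27378728 (-) and chr1:248850687-248850764 (-):
ZNF775: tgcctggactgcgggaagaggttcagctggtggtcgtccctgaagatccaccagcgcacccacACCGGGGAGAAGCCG
ZNF70: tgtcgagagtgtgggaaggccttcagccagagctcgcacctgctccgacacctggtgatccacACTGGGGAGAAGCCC
ZNF513: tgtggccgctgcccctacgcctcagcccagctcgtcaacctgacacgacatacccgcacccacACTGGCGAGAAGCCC
ZNF692: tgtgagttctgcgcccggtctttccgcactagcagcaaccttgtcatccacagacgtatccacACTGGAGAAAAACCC
The GC content of these stretches was 43.6%, 43.6%, 39.7% and 33.3% in the first set and 65.4%, 62.8%, 66.7% and 53.8% in the second. At the last base of all codons, where a change of base often leaves the amino acid as it is, GC content was 34.3%, 34.6%, 41.5% and 37.8% in the first set and 90.9%, 68.4%, 66.9% and 63.5% in the second. The linker held 7 to 9 G or C bases of 15 in the first set and 7 to 11 in the second, with ZNF692 at 7.

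Most ZNF genes outside chromosome 19 had lower normalized counts in DU145-TFEB than in DU145-vector. A normalized count is a gene's reads divided by the size factor that the authors gave the library. With an adjusted p below 0.05 (limma on log2(normalized count + 1), Benjamini-Hochberg over the 10542 genes) and a log2 fold change beyond 1.5, 49 of the 162 fell and 0 rose, beside 16.5% and 2.54% of all listed genes. At the adjusted p alone, 124 were lower and 38 higher, beside 52.4% and 47.6% of all listed genes, and DESeq2 and edgeR on the recovered reads also called 0 higher beyond the fold cutoff. The median log2 fold change was -1.21, with quartiles of -1.59 and -0.38, beside -0.36 over all listed genes and -1.27 over the 158 listed ZNF genes of chromosome 19. The groups did not overlap in 161 of the 162, beside 99.3% of all listed genes, and the exception was ZNF282. The count of 49 depended on the scaling: it was 30 with DESeq2 size factors, 25 with quantile normalization and 8 after the trend against length and GC content, described further on, was subtracted.

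Among members with a mean normalized count of at least 50, the 10 lowest fell 4.11-fold to 5.60-fold between the group means. ZNF860 (chr3:31981771-31991628), a KRAB zinc finger gene, had normalized counts of 17.9, 10.01 and 18.7 (DU145-TFEB) against 71.6, 103 and 86 (DU145-vector), with log2 fold change -2.44 (SE 0.28, limma adjusted p = 3.43e-05). All 3 DU145-TFEB values lay far below the lowest DU145-vector value, although the gene is weakly expressed. ZNF518B (chr4:10439874-10457410), a partner of histone methyltransferases, had 77.9, 48.2 and 106 (DU145-TFEB) against 345, 420.4 and 364 (DU145-vector), with log2 fold change -2.33 (SE 0.25, limma adjusted p = 2.42e-05). ZNF502 (chr3:44712643-44723831) had 33.7, 18.2 and 31.2 (DU145-TFEB) against 142, 142 and 116 (DU145-vector), with log2 fold change -2.27 (SE 0.25, limma adjusted p = 2.68e-05). ZNF354C (chr5:179060415-179083537), a KRAB repressor, had 58.9, 39.1 and 63.3 (DU145-TFEB) against 228, 307 and 241 (DU145-vector), with log2 fold change -2.26 (SE 0.21, limma adjusted p = 1.15e-05). In ZNF518B, ZNF502 and ZNF354C, as in ZNF860, DU145-TFEB replicate 2 was the lowest library.

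Of the others among the 10 lowest, ZNF280C (chrX:130202711-130268899) had 45.2, 47.3 and 72.7 (DU145-TFEB) against 284, 247 and 244 (DU145-vector), a log2 fold change of -2.24. ZNF148 (chr3:125225561-125375354), which binds GC-rich promoter elements, had 172, 81.9 and 234 (DU145-TFEB) against 649.9, 841 and 621 (DU145-vector), a log2 fold change of -2.22. Its DU145-TFEB libraries differed most among themselves, with replicate 2 below the other two, while the DU145-vector libraries stayed above all 3. ZNF770 had 264, 167 and 288 (DU145-TFEB) against 968, 1266 and 1002 (DU145-vector), at -2.19, and ZNF268, a KRAB gene with 24 C2H2 patterns, had 71.6, 45.5 and 80.0 (DU145-TFEB) against 262, 315 and 293 (DU145-vector), at -2.16. ZNF638, a nuclear protein that binds cytidine-rich DNA and RNA, had 399, 230.2 and 525 (DU145-TFEB) against 1535, 1757 and 1449 (DU145-vector), at -2.11. It was the most abundant of these 10 genes. ZNF800 had 103, 56.4 and 125 (DU145-TFEB) against 343, 461 and 369 (DU145-vector), at -2.10. Limma adjusted p ran from 1.15e-05 to 1.43e-04 over ZNF354C, ZNF268, ZNF638, ZNF800 and ZNF148, and was 8.95e-06 for ZNF280C and 9.57e-06 for ZNF770.

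The highest members rose less than the lowest fell, and none reached the fold cutoff. ZNF692 (chr1:248850006-248859144), a repressor of gluconeogenic genes, had 787, 753 and 806 (DU145-TFEB) against 369, 409.6 and 436 (DU145-vector), with log2 fold change 0.95 (SE 0.096, limma adjusted p = 1.77e-05). ZNF513 (chr2:27377231-27380790), a regulator of photoreceptor genes, had 536, 527 and 477 (DU145-TFEB) against 284, 261 and 266 (DU145-vector), with log2 fold change 0.92 (SE 0.10, limma adjusted p = 2.85e-05). ZNF70 (chr22:23738678-23751092) had 199.9, 172 and 191 (DU145-TFEB) against 98.0, 129 and 80 (DU145-vector), with log2 fold change 0.89 (SE 0.18, limma adjusted p = 0.00127). In each of the 3 the lowest DU145-TFEB library lay above the highest DU145-vector library. ZNF775 had 279.9, 302 and 250.2 (DU145-TFEB) against 163, 117 and 200 (DU145-vector), at 0.82, with its DU145-vector libraries spread widely. ZNF385C had 173, 181 and 171 (DU145-TFEB) against 109.8, 98.5 and 104 (DU145-vector), at 0.74, and ZNF589, a KRAB gene of blood stem cells, had 296, 257 and 312 (DU145-TFEB) against 151, 199.9 and 186 (DU145-vector), at 0.69. ZNF517 (0.64), ZNF646 (0.63), ZNF467 (0.58), a cofactor in bone and fat cell differentiation, and ZNF672 (0.58) completed the 10 highest, with limma adjusted p from 7.41e-05 for ZNF646 to 0.00309 for ZNF467. ZNF385B had a larger value of 1.14 but a mean of 18.6, below the mean of 50 required for naming. With the length and GC trend removed, 7 of the 10 highest were below 0, the exceptions being ZNF692, ZNF70 and ZNF589.

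**Figure D1:**
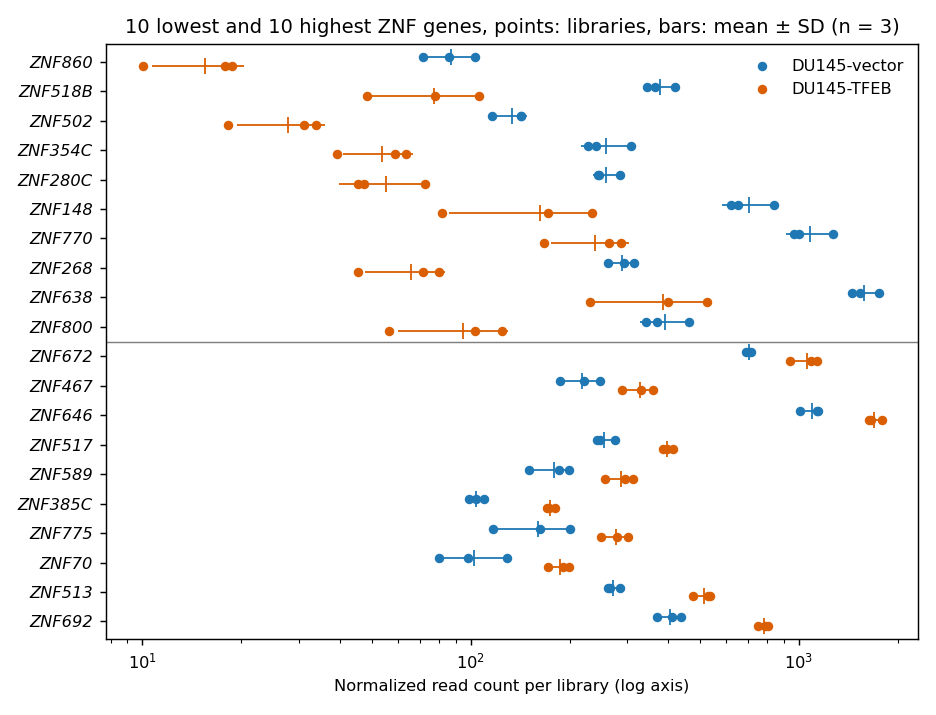
Normalized read counts on a log axis for the 10 ZNF genes with the lowest (upper rows) and the 10 with the highest (lower rows) log2 fold change (means of 50 or more). Points are single libraries, ticks and bars are the mean and SD of 3 libraries, and the DU145-TFEB and DU145-vector points do not overlap in any of the 20 rows.

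At the fold cutoff, ZNF644, a partner of histone methyltransferases, lay just inside with 250.4, 187 and 312 (DU145-TFEB) against 608, 865 and 649 (DU145-vector), a log2 fold change of -1.51, and ZNF33A just outside with 143, 131 and 174 (DU145-TFEB) against 378, 494 and 384 (DU145-vector), at -1.48. Both had non-overlapping groups and a similar decrease. Nearest to 0 were ZNF740 (0.23), ZNF282 (0.26) and ZNF496 (0.27). ZNF282, a KRAB repressor, had 1329, 1513 and 1215 (DU145-TFEB) against 1067, 1071 and 1235 (DU145-vector), and DU145-TFEB replicate 3 lay below DU145-vector replicate 3. Per kb of gene length, the most abundant members were ZNF768, ZNF687 and ZNF24, with means over the 6 libraries of 603, 367 and 336 normalized counts per kb. ZNF768, which binds a class of interspersed repeats, had 1666, 1774 and 1624 (DU145-TFEB) against 1239, 1064 and 1304 (DU145-vector), at 0.49. ZNF687, part of a chromatin complex with ZNF592 and ZMYND8, had 2637, 2819.9 and 2611 (DU145-TFEB) against 2082, 1745 and 2094 (DU145-vector), at 0.45. ZNF24, a SCAN-domain factor, had 1084, 722 and 1463 (DU145-TFEB) against 4078, 5041 and 4266 (DU145-vector), at -2.09, so that the most abundant members by length included both directions.

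By role, members on a list of promoter and activator factors were found in both directions, in shares near those of all listed genes. Whether each of them mainly activates or represses its targets was not examined. Of 13 factors on this list, 9 were listed in the table. Of these 5 were lower (55.6%, beside 52.4% of all listed genes) and 4 higher at the adjusted p. Beyond the fold cutoff 2 fell (22.2%, beside 16.5%), and the median was -1.24 beside -0.36 over all listed genes. Over all 162 members 76.5% were lower, 30.2% fell beyond the cutoff and the median was -1.21. ZNF148 (-2.22), ZNF24 (-2.09) and ZNF281 (-1.40), a regulator of stem cell genes, were the lowest. ZNF281 had 389, 310.3 and 466 (DU145-TFEB) against 992, 1046 and 1004 (DU145-vector). ZNF143 and ZNF76 are paralogs that share a promoter motif, and they moved apart: ZNF143 was at -1.38 and ZNF76 at 0.47. ZNF143 had 143, 140.1 and 183 (DU145-TFEB) against 379, 408 and 423 (DU145-vector), and ZNF76 had 819, 924 and 848 (DU145-TFEB) against 616, 629 and 620 (DU145-vector). The transcripts of this pair had GC contents of 42.5% and 55.6%. ZNF263 (0.41) and ZNF335 (0.40), a factor of neural progenitors, were higher, and ZNF335 had 1081, 1052 and 1025 (DU145-TFEB) against 756, 823 and 814 (DU145-vector). With the trend removed, the 4 higher factors were below 0, with ZNF76 at -0.22, ZNF263 at -0.32 and ZNF335 at -0.57.

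Chromatin cofactors were mostly lower. Of 20 on the list 15 were listed, 13 lower (86.7%, beside 52.4% of all listed genes) and 2 higher at the adjusted p. Beyond the fold cutoff 7 fell (46.7%, beside 16.5%), with a median of -1.41 beside -0.36. Over all 162 members 76.5% were lower, 30.2% fell beyond the cutoff and the median was -1.21. The 7 were ZNF518B, ZNF280C, ZNF292, ZNF280D, ZNF518A, ZNF451 and ZNF644. ZNF292, a large protein altered in neurodevelopmental disorders, had 136, 60.1 and 158 (DU145-TFEB) against 437, 519.8 and 425 (DU145-vector), at -2.07. ZNF451, a SUMO ligase, had 298, 155 and 329 (DU145-TFEB) against 779, 964 and 774 (DU145-vector), at -1.75. In both, DU145-TFEB replicate 2 was lowest, and the DU145-vector libraries lay above all 3. The 3 highest were ZNF462 (-1.02), ZNF219 (0.39) and ZNF687 (0.45), and ZNF219 had 2289.6, 2577 and 2029.96 (DU145-TFEB) against 1747, 1658 and 1852 (DU145-vector). With the trend removed all 15 were lower at the adjusted p, beside 121 of the 162 members and 53.7% of all listed genes. ZNF219 was then at -0.79 and ZNF687 at -0.41. ZNF280D shares 44.2% of its 50-base words with another gene, which leaves its value uncertain.

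Among members linked to RNA and ribosomes, 11 of 16 were listed, with 9 lower (81.8%, beside 52.4% of all listed genes) and 2 higher at the adjusted p. Beyond the fold cutoff 3 fell (27.3%, beside 16.5%), with a median of -0.89 beside -0.36. Over all 162 members 76.5% were lower, 30.2% fell beyond the cutoff and the median was -1.21. With the trend removed 6 of the 11 were lower and 0 higher at the adjusted p, beside 53.7% and 15.7% of all listed genes. ZNF638, ZNF652 and ZNF106 fell beyond the cutoff. ZNF652 is best known as a DNA-binding repressor, yet the counts of this list include it. Its values were 169, 102 and 218 (DU145-TFEB) against 538, 535 and 537 (DU145-vector), at -1.78. ZNF106, an RNA-binding protein needed in motor neurons and muscle, had 1142, 1045 and 1298 (DU145-TFEB) against 3702, 3688 and 3575 (DU145-vector), at -1.66, with the smallest SE (0.087) of the 3. ZNF598, the ubiquitin ligase that marks collided ribosomes, had 1081, 1197 and 1064 (DU145-TFEB) against 930.2, 813 and 927 (DU145-vector), at 0.32. ZNF385A (0.31), which binds RNA and p53, was likewise higher, and ZNF830 (-0.37), a protein of splicing and DNA repair, was lower by a small amount. With the trend removed ZNF598 was at -0.77 and ZNF385A at -0.76, and with quantile normalization ZNF830 was at 0.0864. These role lists were written with earlier results known and are not complete, so that counts describe only the genes on them.

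Members with a sequence pattern of the KRAB domain in any isoform numbered 71. Of these 27 fell beyond the fold cutoff (38.0%), 63 were lower (88.7%) and 8 higher at the adjusted p, and the median was -1.32. Of the 91 without the pattern 22 fell beyond the cutoff (24.2%), 61 were lower (67.0%) and 30 higher, and the median was -1.02. Over all listed genes the shares were 16.5% beyond the cutoff and 52.4% lower. The median GC content of the transcript was 41.7% with the pattern and 44.9% without it, and the part of GC content in this difference was not tested. The list of known KRAB genes had 44 of its 59 listed, 18 beyond the cutoff (40.9%), and ZNF860, ZNF354C and ZNF268 were its lowest. Its highest were ZNF517 (0.64), ZNF205 (0.43) and ZNF747 (0.38). ZNF205 had 328, 409 and 335 (DU145-TFEB) against 265, 274 and 255 (DU145-vector), a narrow separation between the groups. The pattern was not found in 4 known KRAB genes, ZNF202, ZNF212, ZNF398 and ZNF496, so the 71 leave these out. Whether the pattern also matched members without the domain was not checked. With the length and GC trend removed, the medians were -0.62 with the pattern and -0.61 without it, and ZNF517, ZNF205 and ZNF747 were at -0.40, -0.74 and -0.49.

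Medians differed by the number of fingers. With 0 to 4 C2H2 patterns in the longest coding sequence, 32 members had a median of -0.39, near the -0.36 over all listed genes. In this class 18 were lower (56.25%) and 14 higher at the adjusted p, beside 52.4% and 47.6% of all listed genes. The 57 members with 5 to 9 had a median of -1.20, the 51 with 10 to 14 one of -1.24, and the 22 with 15 or more one of -1.53. Median transcript GC content was 44.7%, 43.5%, 42.2% and 41.5% in these classes, and with the trend removed the medians were -0.42, -0.62, -0.62 and -0.72. In the last class 21 were lower (95.5%, beside 52.4% of all listed genes) and 1, ZNF646 with 30 patterns, was higher. Spearman's correlation of the pattern count with the log2 fold change was -0.20, and -0.19 with the trend removed, over the 162 genes, which are not independent replicates and share the 6 libraries.

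The genes that act with KRAB zinc fingers were divided much as all listed genes were. Of 22 genes of the repression machinery 15 were listed, of which 9 were lower (60.0%, beside 52.4%) and 6 higher at the adjusted p. Beyond the fold cutoff 4 fell (26.7%, beside 16.5%), with a median of -0.77 beside -0.36. FAM208A, the TASOR subunit of the HUSH silencing complex, had 545, 360.3 and 749 (DU145-TFEB) against 2368, 2534 and 2254 (DU145-vector), at -2.17. ATRX, a remodeller of heterochromatin, had 316, 126 and 367 (DU145-TFEB) against 898, 1058 and 774 (DU145-vector), at -1.88, with DU145-TFEB replicate 2 lowest. CBX5, the heterochromatin protein 1 alpha, had 1916, 1414 and 2492 (DU145-TFEB) against 7189.7, 6533 and 6828 (DU145-vector), at -1.86, and ATF7IP, the partner of the methyltransferase SETDB1, was at -1.54. The transcripts of these 4 had GC contents from 36.0% to 41.8%. TRIM28, the corepressor itself, was higher with 8077, 9209 and 7648 (DU145-TFEB) against 6609, 6168 and 7075 (DU145-vector), at 0.33 (SE 0.086, limma adjusted p = 0.00481). HDAC1 (0.58), DNMT1 (0.47) and DAXX (0.35) were the highest. Of the 4 beyond the cutoff, 2 were left without DU145-TFEB replicate 2 and with quantile normalization, and 0 with the trend removed. With the trend removed 9 of the 15 were lower and 1, HDAC1, higher at the adjusted p, beside 53.7% and 15.7% of all listed genes. TRIM28 was then at -0.74.

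Transcript GC content divided the lower members from the higher ones almost without overlap. The 124 lower members had longest transcripts of 33.2% to 50.02% GC (median 41.3%), and the 38 higher ones 46.8% to 70.1% (median 58.3%). Above 50% lay 36 of the 38 higher members, with ZNF385B and ZNF589 as exceptions, and 2 of the 124 lower ones, ZNF697 and ZNF202. At the last codon base the medians were 38.9% and 73.2%. The relation was not particular to these genes: Spearman's correlation between GC content and log2 fold change was 0.73 over the 162 and 0.74 over the 10537 listed genes with a GC content, given as descriptions over genes that share the 6 libraries.

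**Figure D2:**
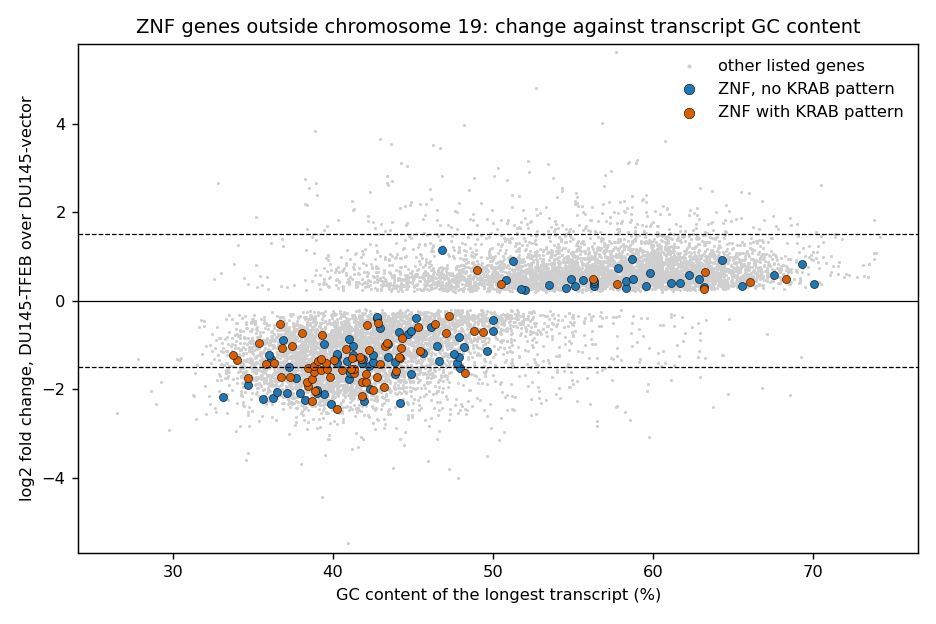
Log2 fold change (DU145-TFEB over DU145-vector) against the GC content (%) of the longest transcript. Grey points are the other listed genes, blue and orange points the 162 ZNF genes without and with the KRAB pattern, and dashed lines mark the cutoffs of 1.5 and -1.5. No point lies near 0 because the table lists only genes that passed an adjusted p of 0.05, and the ZNF genes follow the grey cloud, lower below 50% GC and slightly higher above it.

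Within classes of GC content the members lay below other protein-coding genes, and the distances were small beside the trend itself. Below 40% the median was -1.61 for 45 members and -1.35 for 1760 other genes. From 40% to 45% it was -1.32 for 57 and -1.06 for 2111, and from 45% to 50% it was -0.92 for 22 and -0.50 for 1238. At 50% and above it was 0.42 for 38 and 0.56 for 3946. The classes were chosen after the values were seen, and the differences were not tested. ZNF genes of chromosome 19 had medians of -1.41, -1.38, -1.04 and 0.49 in the same classes.

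**Figure D3:**
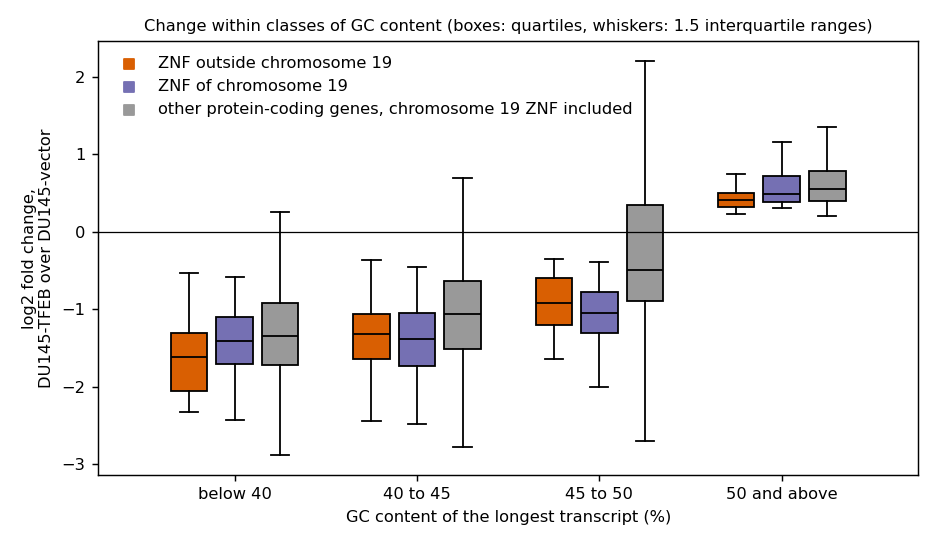
Log2 fold change by class of transcript GC content for ZNF genes outside chromosome 19 (orange), ZNF genes of chromosome 19 (purple) and other protein-coding genes, the latter including chromosome 19 ZNF genes (grey). Boxes show quartiles with the median as a line, whiskers reach 1.5 interquartile ranges, and the orange medians of -1.61, -1.32, -0.92 and 0.42 rise with GC content as the grey ones do.

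The libraries differed within groups in the same direction. Each gene's deviation from its mean over the 6 libraries was taken, and the median for the listed genes in the upper 20% of GC content minus that for the lower 20% was 0.97, 1.31 and 0.69 in DU145-TFEB replicates 1 to 3 and -0.90, -1.26 and -0.86 in DU145-vector, on the log2 scale. DU145-TFEB replicate 2, with the largest value, was the lowest DU145-TFEB library in 90 of the 124 lower members, and DU145-vector replicate 2 was the highest DU145-vector library in 90 of 124. The summed normalized count of the 124 lower members ranged from 19688 to 25818 in DU145-TFEB and from 54397 to 62886 in DU145-vector. That of the 38 higher members ranged from 30323 to 33173 and from 22463 to 24264. The share of listed reads on all 162 was 0.352% to 0.382% in DU145-TFEB and 0.539% to 0.599% in DU145-vector. Base composition of the libraries and the overexpression of TFEB cannot be told apart in this design, since the 2 groups do not overlap in this measure.

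When the trend with length and GC content was removed from each library by loess, the members were still below the listed genes but by less. The median became -0.62, beside -0.30 over all listed genes and -0.64 over the listed ZNF genes of chromosome 19. Beyond the fold cutoff 8 of the 162 members fell, a share near the 4.27% of all listed genes. At the adjusted p 121 members were lower and 5 higher, beside 53.7% and 15.7% of all listed genes. Under both treatments 96 were lower and 5 were higher, and 25 went from higher to lower. None went from lower to higher at the adjusted p, and 40 changed sign. The 8 beyond the cutoff are named here after their values were seen: ZNF860 (-1.82), ZNF365 (-1.91), ZNF502 (-1.80), ZNF670 (-1.501), ZNF35 (-1.55), ZNF75A (-1.57), ZNF664 (-1.52) and ZNF165 (-1.503).

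Those 8 differ widely in level. ZNF664, the most abundant, had 728, 577 and 819 (DU145-TFEB) against 1948, 2282 and 1859 (DU145-vector), at -1.53 with the authors' scaling. ZNF35 had 54.7, 40.9 and 41.5 (DU145-TFEB) against 142, 144 and 152 (DU145-vector), at -1.67, and ZNF75A had 73.7, 72.8 and 96.6 (DU145-TFEB) against 236, 296 and 231 (DU145-vector), at -1.64. In these 3 the change was nearly the same under both treatments, and their transcripts held 48.0%, 44.9% and 48.2% GC. ZNF365 had 0, 4.55 and 1.04 (DU145-TFEB) against 6.86, 12.7 and 12 (DU145-vector), so that its value rests on few reads, and it shares 28.0% of its 50-base words with another gene. ZNF165 had 8.42, 10.01 and 8.31 (DU145-TFEB) against 35.3, 26.3 and 16 (DU145-vector), also at low counts and -1.38 with the authors' scaling.

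The 5 that were higher under both treatments were ZNF385B, ZNF70, ZNF589, ZNF746 and ZNF496, again named after their values were seen. ZNF385B had 23.1, 23.7 and 31.2 (DU145-TFEB) against 11.8, 11.7 and 10 (DU145-vector), at 1.14 and 1.23 with the trend removed (limma adjusted p = 0.00213). ZNF70 went from 0.89 to 0.58, ZNF589 from 0.69 to 0.53, ZNF746 from 0.38 to 0.26 and ZNF496, a partner of histone methyltransferases, from 0.27 to 0.22. Most higher members did not do so, as ZNF775, from 0.82 to -0.40, and ZNF282, from 0.26 to -0.79, show. ZNF692, the highest well-expressed member with the authors' scaling, was at 0.04 once the trend was removed, and ZNF513 at -0.20.

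**Figure D4:**
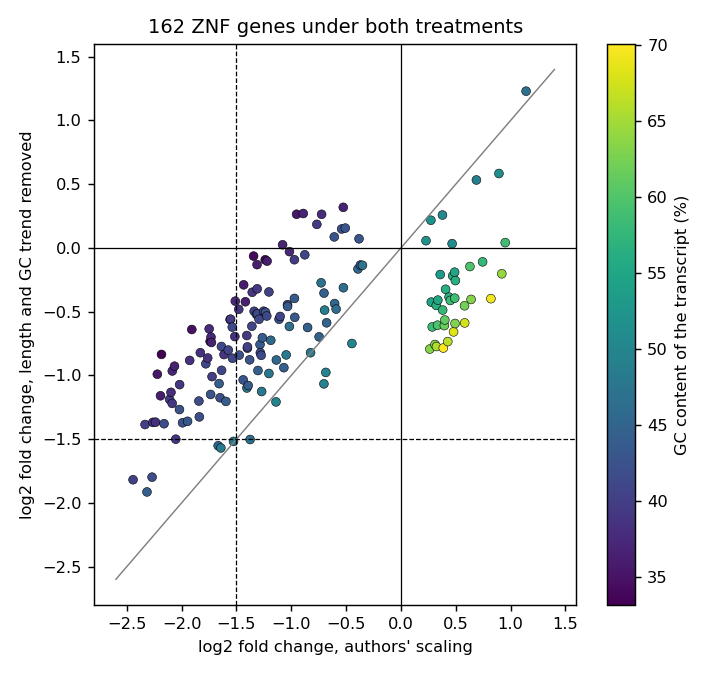
Log2 fold change of the 162 ZNF genes with the authors' scaling (horizontal axis) and after a loess fit on length and GC content was subtracted (vertical axis). Colour gives transcript GC content (%), dashed lines the cutoff of -1.5, and the grey line equal values. Points of high GC content fall from above 0 to below it, 40 genes change sign, and 8 called genes lie beyond -1.5 on the vertical axis.

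Members lie together in the genome in 15 clusters of at least 3 listed members with neighbours within 1 Mb, which hold 69 of the 162. In 11 clusters, with 49 members, all were lower at the adjusted p, and in 4 both directions occurred. Of all 162 members 124 (76.5%) were lower, beside 52.4% of all listed genes, and whether clustered members differed from single ones was not tested. The cluster at the end of chromosome 12 (chr12:132918308-133214831) held ZNF605, ZNF26, ZNF84, ZNF140, ZNF891, ZNF10 and ZNF268. All 7 were lower, from -2.16 to -1.14, and 5 of them fell beyond the fold cutoff, beside 30.2% of all members and 16.5% of all listed genes. On chromosome 5 (chr5:178711592-179083537) the KRAB genes ZNF354A, ZNF354B, ZNF879 and ZNF354C were lower with a median of -1.62. On chromosome 7 (chr7:64307459-65401135) 7 genes from ZNF736 to ZNF92 ranged from -2.18 to -0.53, with transcripts of 33.2% to 41.3% GC. With the trend removed, 3 of those 7 were lower at the adjusted p and 6 of 7 in the chromosome 12 cluster, beside 53.7% of all listed genes. The difference between these clusters was not tested.

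The 4 clusters with both directions separated by base composition. On chromosome 16 (chr16:3112560-3318852) ZNF205 and ZNF263 were higher and ZNF200 and ZNF75A lower. A further cluster of that chromosome (chr16:30407297-31917357) had ZNF267 lower and ZNF771, ZNF768, ZNF747 and ZNF646 higher. At the end of chromosome 7 (chr7:149126416-150398631) ZNF398 was lower and ZNF282, ZNF212, ZNF746, ZNF467 and ZNF775 higher. On chromosome 1 (chr1:246945547-247331846) ZNF496 was higher and the other 4 lower. In each of the 4 the higher genes had transcripts above 50% GC and the lower ones below it, so that neighbours within a cluster differed.

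**Figure D5:**
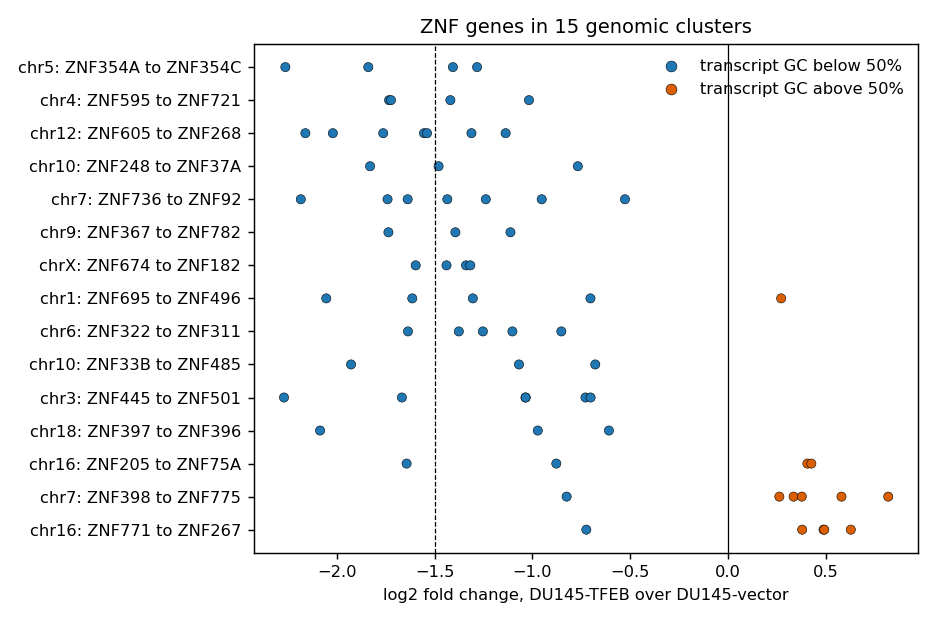
Log2 fold change of the members of 15 clusters, one row per cluster, named by its first and last listed gene. Points are genes, blue below and orange above 50% transcript GC, the dashed line marks -1.5, and 11 rows hold lower genes only while the bottom 2 rows hold mostly higher ones.

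TFEB binds the palindrome TCACGTGA, an extended E-box whose core is CACGTG, and both were searched as written in promoters of 250 bases before to 50 after the start (RefSeq, GRCh38.p14), each being its own reverse complement. Promoters were matched for 139 members, with 185 windows. CACGTG occurred in 5.95% of these windows, in 9.18% of 10880 windows of the listed protein-coding genes and in 7.26% of all 35116 windows. TCACGTGA occurred in 2.70%, 1.76% and 0.980%. The longer motif, which contains the shorter, was found in 5 windows of 4 members, ZNF84 having 2 overlapping windows: ZNF292, ZNF512, ZNF669 and ZNF84. These 4 were at -2.07, -0.39, -0.70 and -1.55, all lower in DU145-TFEB, as were 76.5% of all members and 52.4% of all listed genes. Of the 4, ZNF512 and ZNF669 are named because they hold the motif. ZNF669 had 169, 207 and 174 (DU145-TFEB) against 316, 312 and 270 (DU145-vector), and ZNF84 had 73.7, 49.1 and 103 (DU145-TFEB) against 199.96, 233 and 208 (DU145-vector). A match of letters is not a binding site, and no binding was measured in these files. The windows of ZNF292 (chr6:87155315-87155614, +) and ZNF84 (chr12:133037259-133037558, +) are shown with the 8 bases in capitals, as the 2 of the 4 that passed the fold cutoff:
ZNF292: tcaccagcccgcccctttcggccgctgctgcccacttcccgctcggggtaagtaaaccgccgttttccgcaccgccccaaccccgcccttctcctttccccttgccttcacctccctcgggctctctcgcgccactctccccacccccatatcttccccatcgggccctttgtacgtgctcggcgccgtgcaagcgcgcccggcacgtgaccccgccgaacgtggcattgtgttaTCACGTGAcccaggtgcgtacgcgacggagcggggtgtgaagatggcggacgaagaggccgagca
ZNF84: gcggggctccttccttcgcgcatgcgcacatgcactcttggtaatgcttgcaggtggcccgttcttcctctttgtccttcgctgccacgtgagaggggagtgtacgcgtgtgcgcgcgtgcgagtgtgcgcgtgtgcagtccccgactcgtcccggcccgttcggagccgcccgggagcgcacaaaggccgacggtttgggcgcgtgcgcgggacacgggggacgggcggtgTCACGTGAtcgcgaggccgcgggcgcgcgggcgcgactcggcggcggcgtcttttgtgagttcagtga

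Reads of related genes can be misassigned, and exons of 77 members overlap exons of another gene, 49 of them on the opposite strand. How the counting treated strand is not given in the sources used here, so the values of these genes are uncertain. At least 20% of the 50-base words of the transcript occur in another gene in 12 members. ZNF286A, with 68.9% shared with ZNF286B, had 55.8, 52.8 and 89.3 (DU145-TFEB) against 242, 299 and 215 (DU145-vector), and ZNF658, with 67.9% shared with ZNF658B, had 47.4, 48.2 and 47.8 (DU145-TFEB) against 143, 140.4 and 138 (DU145-vector). ZNF775 among the highest shares 22.3%. At least 10 reads were present in every library for 156 of the members.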

How the data were processed

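Poly(A) RNA libraries (NEBNext Ultra, sequenced by Novogene) were made by the authors. The submitters' processing notes name CASAVA 1.8, HISAT2 2.1.0, edgeR and GRCh38, and the methods of the study name DESeq2. The counter, annotation and strandedness are not given in the sources used here. The authors deposited a normalized signal, reads divided by 1 size factor per library. 100% of the values were whole reads within 0.01 after division by each library's step. The authors also deposited a log2 fold change and a p-value of their own comparison for each gene, which were not used as results, the adjusted p-value serving only to see that every listed gene passed 0.05. Libraries were grouped by their labels.

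log2(normalized count + 1) was tested with limma 3.58.1 (trend) in R 4.3.3 over 10542 genes, with Benjamini-Hochberg adjustment. Both an adjusted p below 0.05 and a log2 fold change beyond 1.5 or -1.5 were required for a call. An exact two-sided permutation test of 3 against 3 libraries cannot go below 0.1. Alternatives were edgeR 4.0.16 and DESeq2 1.42.0 on the recovered reads, 3 scalings (DESeq2 size factors, library size, quantile), pseudocounts of 0.5 and 5, a filter of 10 reads, the replicate block, removal of the length and GC trend (loess, span 0.5), protein-coding rows only, a fold cutoff of 1 and each library left out. The scripts were tested on simulated data. Named genes were the 10 lowest and 10 highest members with a mean of at least 50, the 3 highest per kb, the 3 nearest 0, the 3 lowest and highest on each role list, and 1 on each side of the cutoff. The members and lists were chosen with earlier results of these data known. GC content, finger and KRAB patterns came from GENCODE 29 transcripts, whose gene positions equal the table's for all 162 members. Some marker genes are not reported here.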

Additional observations from a re-analysis of the deposited data

How the results depend on the processing

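The count of 49 genes beyond the fold cutoff became 30 with DESeq2 size factors, 29 with DESeq2, 25 with quantile normalization, 8 with the length and GC trend removed and 95 at a fold cutoff of 1, and 37 to 58 when each library was left out in turn. The count of higher genes became 1 with quantile normalization and 1 at a cutoff of 1, both ZNF385B, and the count higher at the adjusted p became 5 with the trend removed. The median of -1.21 became -0.97 with DESeq2 size factors, -0.97 with DESeq2, -0.81 with quantile normalization and -0.62 with the trend removed, and -1.26 to -1.11 with libraries left out. The median over all listed genes moved as well, to -0.12, -0.03 and -0.30 with DESeq2 size factors, quantile normalization and the trend removed. The members' median minus that of all listed genes was -0.86, -0.78 and -0.31 there. The 4 genes of the repression machinery became 2 with quantile normalization and without DU145-TFEB replicate 2, and 0 with the trend removed, 2 to 4 over the libraries left out.

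Replicate numbers did not pair the libraries: the deviations of same-numbered libraries correlated at -0.02, -0.25 and -0.14, and no DU145-TFEB library correlated best with its own number. With the replicate number as a block, 49 were called lower, 0 higher, 124 lower and 36 higher at the adjusted p alone, and the median stayed at -1.21.

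Of 816 alternative values of 48 named genes, 761 kept direction and side of the cutoff, 30 were no longer past it, 5 came past it and 20 reversed. ZNF830 reversed to 0.0864 with quantile normalization. With the trend removed, 19 reversed: ZNF672 (-0.45), ZNF467 (-0.59), ZNF646 (-0.15), ZNF517 (-0.40), ZNF385C (-0.11), ZNF775 (-0.40), ZNF513 (-0.20), ZNF687 (-0.41), ZNF768 (-0.59), ZNF282 (-0.79), ZNF335 (-0.57), ZNF263 (-0.32), ZNF76 (-0.22), ZNF219 (-0.79), ZNF385A (-0.76), ZNF598 (-0.77), ZNF747 (-0.49), ZNF205 (-0.74) and DAXX (-0.39). The cause was not tested. Depth limits the 6 members, ZNF365 among them, that had under 10 reads in a library.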
